A study of Saccharomyces cerevisiae with 2 samples.

Results

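The genes described here are 41 genes of DNA replication and S phase in budding yeast (Saccharomyces cerevisiae), taken from a named list and measured by every probe that lay in their reading frames or within 500 bp upstream of their start codons. They make up 41 of the 5915 protein-coding frames placed on the arrays and were read by 329 of 41282 nuclear probes. The cells were of strain MDY513, in which HTZ1 is deleted, so every value below comes from cells that lack H2A.Z, the histone variant it encodes. They were held for 4 h with 4 µg/mL of alpha factor, the mating pheromone that stops cells in G1, and were then put into rich medium with 2% galactose for 180 min. One histone H3 carried a Myc tag and was made all the time, while a second carried a Flag tag and was made only once galactose was added. DNA that came down with anti-Myc antibody was labelled with Cy5, DNA that came down with anti-Flag antibody with Cy3, and both were hybridised to the same 2-colour tiling array. There is 1 group of 2 arrays, called replicate 1 and replicate 2, with no dye swap and no cells with HTZ1, so gene-specific differences between the dyes or the antibodies cannot be told apart from differences in histone.

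Every value below is a log2 ratio of Flag to Myc, centred so that the median probe of the array is 0. A positive value means more new H3, relative to H3 of all ages, than at the median probe. It is not a level of either histone and not a level of transcription. "Higher" and "lower" are used for regions that differed from 0 with an adjusted p under 0.05 in limma, with p-values adjusted over all regions of that kind in the genome. The labels do not say that the arrays came from separate cultures, so these p-values measure only the spread between 2 arrays, which may be technical, and the number of arrays limits their precision. The arrays agreed closely for these genes, with the same sign in 41 of 41 coding regions and 29 of 32 promoters. The single HTZ1 probe was not well above background in any channel. Of 6 probes in BAR1, a gene for a protease that degrades alpha factor, 1 was well above background in both channels on replicate 1 and 0 on replicate 2.

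Replication starts when the origin recognition complex, with Cdc6, loads the MCM helicase onto origin DNA in G1. The Dbf4-dependent kinase, Cdc45 and scaffold proteins then start the helicase, and polymerases alpha, epsilon and delta copy the DNA with the help of the PCNA clamp, its loaders and the single-strand binding protein RPA. In cycling cells the MCM genes and CDC6 are known for transcription around the end of mitosis, whereas many polymerase, RPA and nucleotide synthesis genes are switched on by the factor MBF at the passage from G1 into S phase, a step that alpha factor blocks. New H3 enters chromatin outside replication mainly where nucleosomes are lost and replaced, at promoters above all, and an arrest in G1 is used to keep replication from bringing it in.

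Over their coding regions most of the replication genes had less new H3, relative to H3 of all ages, than the median probe. Of 41 coding regions 25, or 61.0%, were lower, where 42.9% of all 5593 coding regions were lower. Another 7, or 17.1%, were higher, where 39.1% of all coding regions were higher, and 9 passed in neither direction. The median coding region of the list was at -0.57 and that of all genes at -0.06. These genes have longer frames than most, with a median of 1863 bp against 1209 bp, and the coding ratio fell with frame length among all genes (Spearman's rho -0.50 over 5593 genes) and among these (rho -0.43 over 41 genes, whose points share the same 2 arrays). Beside genes of like length the distance was smaller in the 3 classes from 1000 bp up. For frames of at least 1000 and under 2000 bp the median was -0.29 for 16 replication genes and -0.17 for all genes. For those of at least 2000 and under 3000 bp it was -0.72 for 15 replication genes and -0.55 for all genes. The 3 longest, POL1, POL2 and MCM6, had a median of -0.95 where all genes of 3000 bp or more had one of -0.82. Under 1000 bp the 7 replication genes had a median of -0.02 where all genes had 0.50, and they were spread from -1.11 to 2.01. The part of frame length in the shift of the whole list was not tested beyond these classes.

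**Figure D1:**
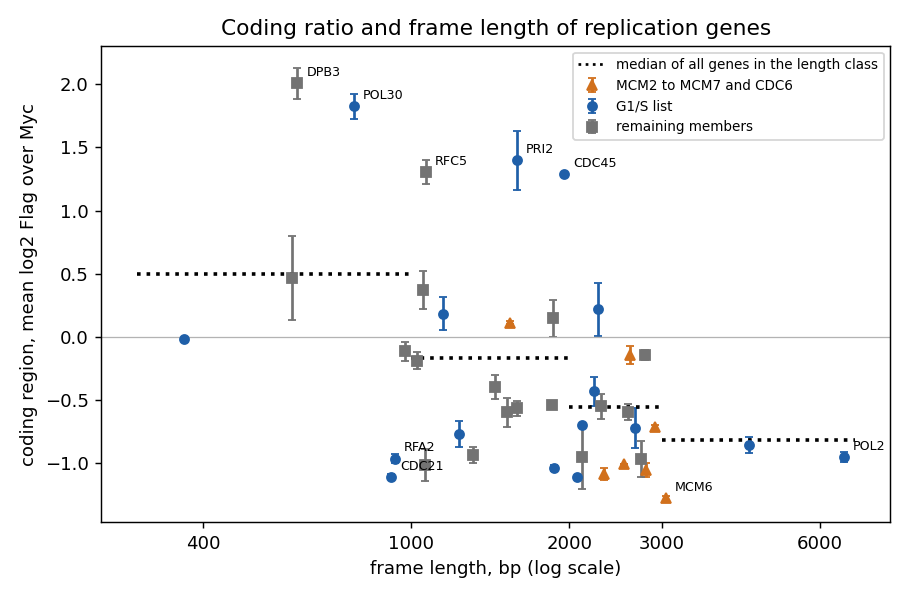
Coding-region log2 Flag over Myc (mean of 2 arrays, error bars SD) against frame length in bp on a log axis for the 41 replication genes, with dotted lines at the median of all genes in each length class. Most long frames lie between -0.5 and -1.3, and the 5 highest genes, DPB3, POL30, PRI2, RFC5 and CDC45, are all shorter than 2000 bp.

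Promoters showed the opposite position. A promoter value could be had for 32 of the 41 genes, since 23 of the 69 promoter probes (33.3%) were too close to background in at least one channel. Among all promoter probes of the genome that share was 27.3%, and among all coding probes 1.96%. Probe by probe, 78 of the 289 used probes of these genes were higher, where 40.5% of all probes were, and 153 were lower, where 40.1% were. Of the 32 promoters 21, or 65.6%, were higher than the median probe, where 75.9% of all 4547 promoters were. The promoters of CDC21 and POL2 were the only 2 of the 32 that were lower (6.25%, with 6.97% of all promoters). Neither share was above the genome's with the main processing. With normexp 25 of 32 promoters were higher, and with shared probes left out 14 of 15. The genome's shares under these 2 settings are not given here. The median promoter of the list was at 0.95 and that of all genes at 0.99. These medians were 0.72 and 0.94 with loess, and 0.68 and 1.09 with at least 2 probes per region. With loess normalization neither CDC21 (-0.29) nor POL2 (-0.17) passed, nor did POL2 with normexp (-0.22) or a 300 bp window (-0.35). Every used promoter probe of these 2 genes is shared with a divergent neighbour, UFE1 for CDC21 and YIF1 for POL2. Within genes the promoter exceeded the frame in 28 of 32 (87.5%), where 69.4% of all 4399 genes with both regions passed in that direction. With loess 24 of the 32 passed, and the genome's share under loess is not given here. In 3 genes, CDC45, POL30 and DPB3, the frame exceeded the promoter (9.38%, with 10.3% of all genes). The median difference was 1.17 for the list and 0.91 for all genes.

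**Figure D2:**
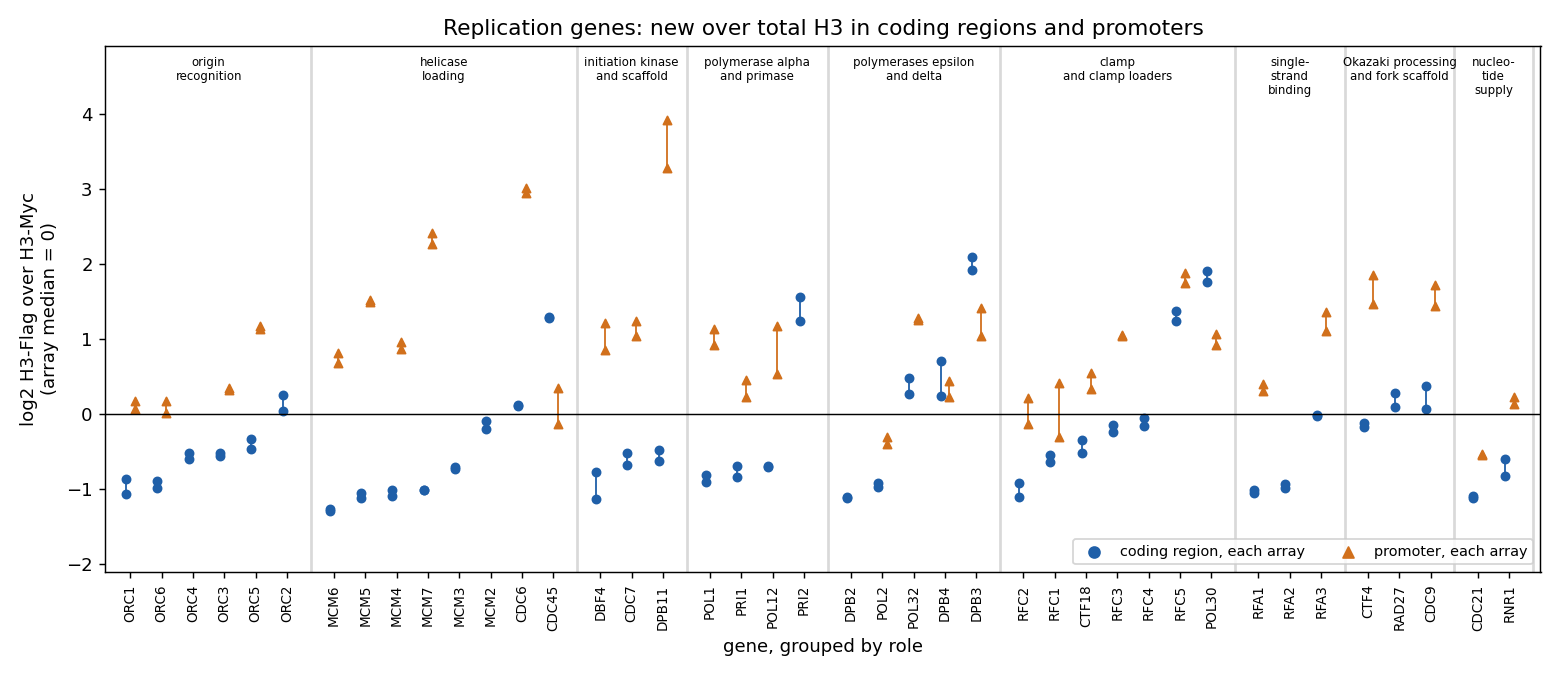
Log2 Flag over Myc of each replication gene, grouped by role, with circles for the coding region and triangles for the promoter on each of the 2 arrays and a line joining the arrays (array median at 0). Coding regions lie mostly below 0 and promoters mostly above it, with DPB3, POL30, PRI2, RFC5 and CDC45 standing out by coding regions above 1.

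Of the 6 genes of the origin recognition complex, which marks origins for the helicase, 5 had lower coding regions, and 1 of the 4 measured promoters was higher. Across the genome 42.9% of coding regions were lower and 75.9% of promoters higher. ORC1, the largest subunit, measured -1.07 and -0.86 on the 2 arrays over its frame (mean -0.97 ± 0.14 SD, n = 2, limma adjusted p = 4.99e-05). ORC6 was at -0.94 ± 0.06. ORC4, ORC3 and ORC5 were lower too, between -0.57 and -0.40, though ORC3 did not pass with normexp background correction (-0.19). ORC2 was the exception, at 0.04 and 0.25, and passed in neither direction (limma adjusted p = 0.19). Of the 4 ORC promoters measured, those of ORC6, ORC1 and ORC3 lay between 0.09 and 0.33 and did not pass. The ORC1 promoter was at 0.94 and passed with a 300 bp window or with shared probes left out, and the ORC3 promoter was at 0.60 and passed with normexp. The ORC5 promoter was at 1.13 and 1.17 (mean 1.15 ± 0.03, limma adjusted p = 1.34e-11). It faces the end of POL2, the catalytic subunit of polymerase epsilon, which lies 219 bp upstream in the same orientation. The last used POL2 probe, at chr14:154712-154771 in the coordinates of the files, was at 1.07, while the 8 used probes before it ranged from -2.05 to -0.76. The promoter exceeded the frame in all 4 ORC genes with both values, by 0.87 to 1.55, though ORC3 did not pass with loess (0.41). Among all genes 69.4% passed in that direction.

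The helicase genes MCM4, MCM5, MCM6 and MCM7 held some of the lowest frames of the list and some of its wider steps between promoter and frame. Their frames are long. MCM4, MCM5 and MCM7 have at least 2000 and under 3000 bp, a class where the median of all genes was -0.55. MCM6, with 3054 bp, is in the class with a median of -0.82. MCM6 was the lowest coding region of the 41, at -1.27 on replicate 1 and -1.29 on replicate 2 (mean -1.28 ± 0.02, n = 2, limma adjusted p = 8.27e-06), a ratio 2.43-fold below the median probe. The frame of MCM5 measured -1.05 and -1.12, that of MCM4 -1.02 and -1.09, and that of MCM7 -1.01 on both arrays. MCM3 was at -0.72 ± 0.02. All 5 were lower, where 42.9% of all coding regions were, and in each the arrays lay within 0.08 of each other. MCM2, at -0.20 and -0.10, did not pass (limma adjusted p = 0.17), but it was lower with normexp (-0.26). It was also lower without the filter on dim probes (-0.24), where the array median used for centring moved and no MCM2 coding probe was added. No used promoter probe remained for MCM2 or MCM3.

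At the promoters the order differed. MCM7 measured 2.41 and 2.26 (mean 2.33 ± 0.10, limma adjusted p = 1.83e-42), MCM5 1.49 and 1.52, MCM4 0.86 and 0.96, and MCM6 0.81 and 0.67. The MCM7 promoter exceeded its frame by 3.34 ± 0.10 (limma adjusted p = 1.23e-09), which placed it at rank 45 of the 4399 genes measured in both regions. For MCM5, MCM6 and MCM4 the step was 2.59, 2.02 and 1.97. The 2 promoter probes of MCM7 differed. One, at chr2:625309-625368 and position -429 bp from the start codon, was at 3.76 and 3.89, while the other, at -160 bp, was at 1.05 and 0.62. From there the ratio fell through the frame to -2.18 at 1088 bp, the lowest of the 289 used probes of the list, and came back to 0.36 at 2292 bp.

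CDC6, the loading factor that works with the ORC, had a high promoter and a frame at the array median. Its 1 promoter probe measured 2.94 and 3.00 (mean 2.97 ± 0.04, limma adjusted p = 2.73e-67), the second highest promoter of the list. Its frame measured 0.12 and 0.11 and passed in neither direction (limma adjusted p = 0.27). The promoter exceeded the frame by 2.86 ± 0.05, at rank 122 of 4399. The same probe lies in the promoter window of the divergent gene ELO1, whose frame was at -0.44.

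The 7 genes known for transcription around the end of mitosis, MCM2 to MCM7 and CDC6, had a median coding region of -1.01, and 5 of 7 were lower (42.9% of all coding regions). All 5 with a promoter value were higher there (75.9% of all promoters), with a median of 1.50. The promoter exceeded the frame in all 5 (69.4% of all genes), with a median step of 2.59. The 16 genes listed as switched on at the passage into S phase had a median coding region of -0.71, with 10 of 16 lower (62.5%) and 3 higher (18.8%), where 42.9% and 39.1% of all coding regions were. Of their 12 measured promoters 7 (58.3%) were higher and 2 (16.7%) lower, where 75.9% and 6.97% of all promoters were, with a median of 0.40 and a median step of 1.0. The remaining 18 genes had medians of -0.47 over the frame and 1.05 over 15 promoters. No difference between these classes was tested, because the classes were drawn up with earlier results of the same arrays known.

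**Figure D3:**
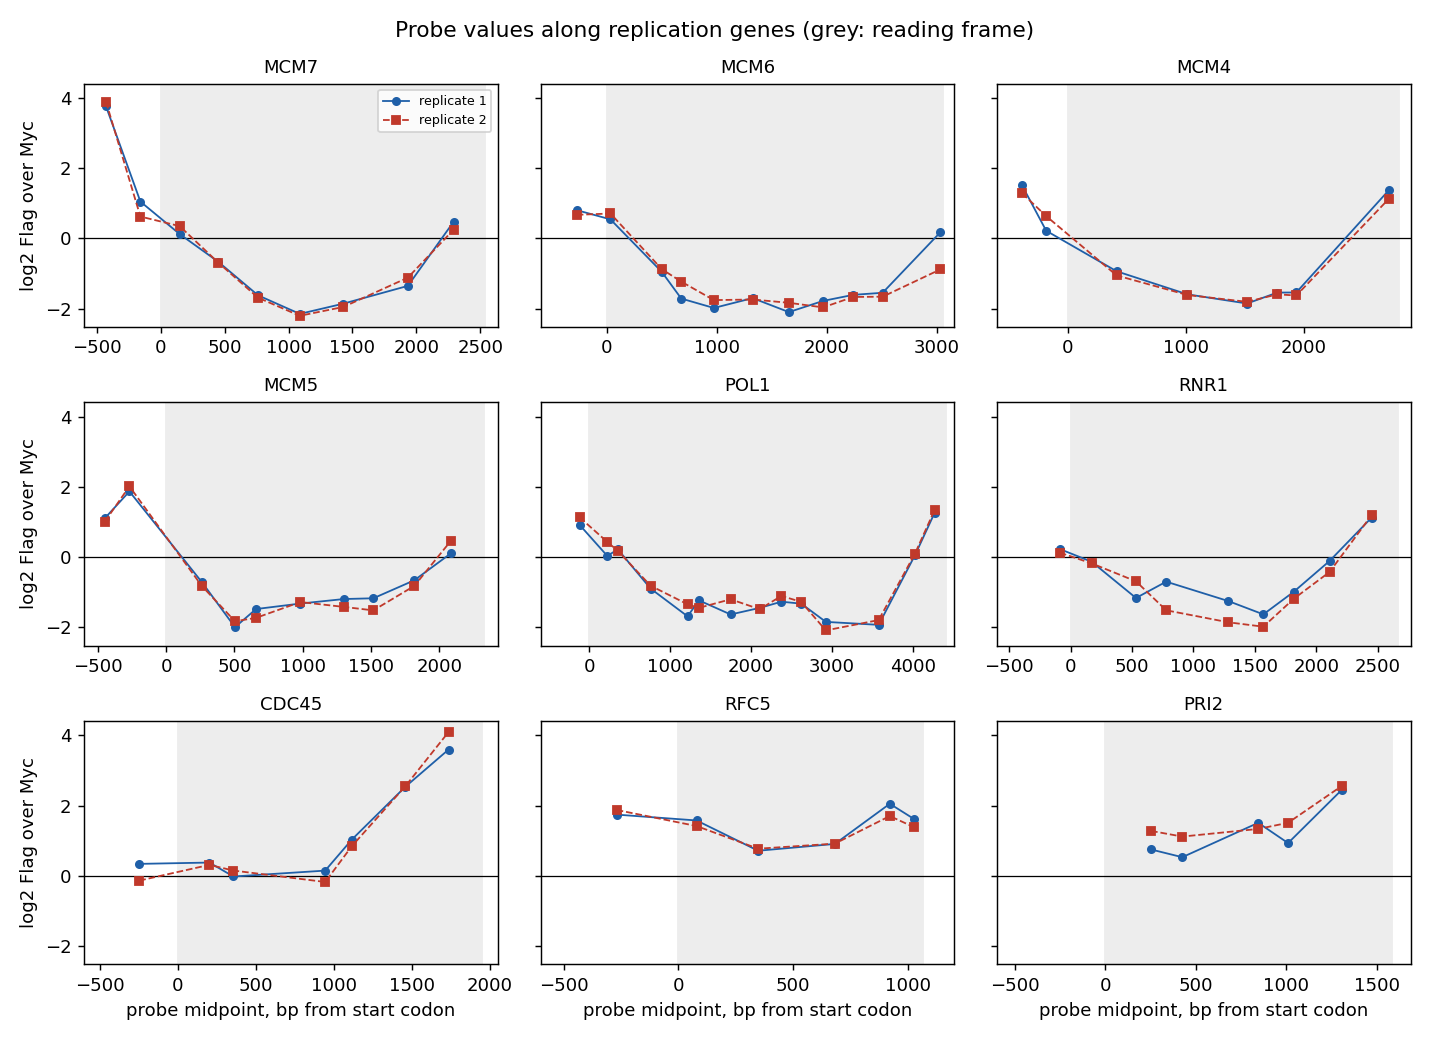
Probe-by-probe log2 Flag over Myc on both arrays along 9 replication genes, against the distance of the probe midpoint from the start codon in bp (grey band, reading frame). MCM7, MCM6, MCM4, MCM5, POL1 and RNR1 dip inside the frame to probe means between -1.8 and -2.2, whereas CDC45 climbs to 3.85 at its end and RFC5 and PRI2 stay above 0 throughout.

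CDC45, whose protein joins the MCM ring to form the active helicase, went the other way from the MCM genes. Its frame measured 1.28 and 1.30 (mean 1.29 ± 0.01, limma adjusted p = 7.94e-06) and its promoter 0.34 and -0.14 (limma adjusted p = 0.57). Over the first part of the frame the ratio had probe means of 0.34, 0.07 and -0.01 up to 946 bp. It passed as higher at the first of these probes (limma adjusted p = 0.049). It then rose to 0.94 at 1117 bp, 2.55 at 1460 bp and 3.85 at 1737 bp, the highest used probe of the list, at chr12:344176-344235. That last probe measured 3.60 and 4.10. Cut into 3 equal parts, the last part of the frame exceeded the middle one by 2.73 ± 0.36 (limma adjusted p = 2.91e-05), at rank 33 of 4134 genes. The next gene on that side, APC9, starts 221 bp beyond the CDC45 stop codon in the same orientation. It had a promoter of 2.46 and a coding region of 1.62, so the high stretch ran on past the end of CDC45. APC9 was looked up after the CDC45 values were seen. The divergent gene LCL2, which shares the CDC45 promoter probe, was lower over its frame, at -0.60 ± 0.16.

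The kinase genes and the scaffold DPB11 combined low frames with high promoters in 3 of 3 genes. In the genome 42.9% of coding regions were lower and 75.9% of promoters higher. DBF4, the regulatory subunit that switches on the kinase Cdc7, measured -1.13 and -0.77 over its frame and 1.21 and 0.85 at its promoter. CDC7 itself was at -0.60 ± 0.12 and 1.14 ± 0.13. DPB11, a scaffold that brings initiation factors together, had the highest promoter of the list. Its 1 probe, at chr10:265257-265316 and position -319 bp from the start codon, measured 3.28 and 3.91 (mean 3.60 ± 0.44, limma adjusted p = 4.21e-96). The frame measured -0.62 and -0.48. The promoter exceeded the frame by 4.14 ± 0.34 (limma adjusted p = 4.60e-10), at rank 6 of the 4399 genes. This is a 17.7-fold step in the ratio within one gene, and it rests on a single promoter probe.

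Of the polymerase alpha and primase genes, which start each new strand, 3 of 4 were lower over the frame and PRI2 was higher. Genome-wide 42.9% of coding regions were lower and 39.1% higher. POL1, the catalytic subunit, measured -0.90 and -0.81, PRI1, the small primase subunit, was at -0.77 ± 0.10, and POL12, the second subunit, was at -0.70 ± 0.01. PRI2, the large primase subunit, measured 1.23 and 1.56 (mean 1.40 ± 0.23, limma adjusted p = 1.35e-05). All 5 of its coding probes were above 0, from 0.82 to 2.50, and the highest was the one nearest the stop codon. The gene after it in the same orientation, MMO1, lies 1242 bp beyond the PRI2 stop codon, so the MMO1 promoter window does not adjoin PRI2. That gene was at 3.81 over its promoter and 2.67 over its frame. MMO1 was likewise looked up after the PRI2 values were seen. The POL1 promoter, at 1.03 ± 0.15, and the POL12 promoter, at 0.53 and 1.18, were higher, but with loess the POL12 promoter was at -0.018. The PRI1 promoter was at 0.34 ± 0.16 and did not pass (limma adjusted p = 0.051), whereas it passed with loess (0.49) and with scaled arrays (0.34).

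The subunits of polymerase epsilon, which copies the leading strand, split by size of gene. POL2, the catalytic subunit and the longest frame of the list at 6669 bp, measured -0.98 and -0.92 (limma adjusted p = 3.66e-05), and DPB2, its essential second subunit, -1.11 and -1.12. DPB3 and DPB4, small histone-fold subunits with frames of 606 bp and 591 bp, were higher. DPB3 had the highest coding region of the 41, at 2.10 and 1.92 (mean 2.01 ± 0.12, limma adjusted p = 1.17e-06), and both its probes were near 2. DPB4 was at 0.70 and 0.23, with the widest gap between the arrays of any coding region of the list, and did not pass with loess normalization (0.28). The promoter of DPB3 was at 1.23 ± 0.26, below the frame by 0.78 on the log2 scale. Its 1 promoter probe lies also in the promoter window of PPS1, a divergent gene whose frame was at -0.83 ± 0.01. POL2 was 1 of the 2 genes with a lower promoter, at -0.31 and -0.40 (limma adjusted p = 0.042). POL32, a small subunit of polymerase delta, the lagging-strand enzyme, was higher over the frame (0.37 ± 0.15) and the promoter (1.26 ± 0.02). Without the filter on dim probes its promoter was at 0.02 and did not pass.

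The clamp PCNA and its loaders did not move as a group. POL30, which encodes PCNA, measured 1.90 and 1.76 over 2 used coding probes (mean 1.83 ± 0.10, limma adjusted p = 1.69e-06), and RFC5, a loader subunit, 1.37 and 1.24 over 5 (mean 1.31 ± 0.10, limma adjusted p = 8.90e-06). These 2 genes are neighbours on chromosome 2 and run toward each other with 160 bp between their stop codons. All 7 used coding probes across them, from chr2:423809-423868 to chr2:425493-425552, were between 0.74 and 2.04. The other loader genes differed from this pair. RFC2 was lower, at -1.10 and -0.93, RFC1, the large subunit, was at -0.59 ± 0.06, and CTF18, of the alternative loader for cohesion, was at -0.43 ± 0.12 and did not pass with loess (-0.29). RFC3 and RFC4, at -0.19 and -0.11, passed in neither direction, but with the median of the probes both were lower (-0.51 and -0.30). The POL30 promoter, at 0.99 ± 0.11, lay below its own frame by 0.83 on the log2 scale (limma adjusted p = 0.00051). The RFC5 promoter, at 1.81 ± 0.09, and the RFC3 promoter, at 1.05 ± 0.02, were higher, while those of RFC1 and RFC2 were near 0.05 and crossed 0 between the arrays; the RFC1 promoter was higher with normexp (0.36).

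RPA binds single-stranded DNA at the fork. RFA1, its large subunit, measured -1.06 and -1.02 over the frame (limma adjusted p = 2.29e-05), and RFA2, the middle subunit, -0.94 and -0.99. RFA3, the small subunit, whose frame of 369 bp is the shortest of the list, was at -0.02 ± 0.01 (limma adjusted p = 0.87). The RFA3 promoter was at 1.23 ± 0.18, and the RFA1 promoter was higher at 0.35 ± 0.06 (limma adjusted p = 0.043). The RFA1 promoter did not pass with loess (0.33), with a 300 bp window (0.35) or without the filter on dim probes (0.25).

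The genes that finish the lagging strand, RAD27 and CDC9, and the fork scaffold CTF4 had frame means near the array median. RAD27, the flap nuclease that trims Okazaki fragments, was at 0.18 ± 0.13, CDC9, the ligase that joins them, at 0.22 ± 0.21, and CTF4, which links the helicase to polymerase alpha, at -0.15 ± 0.04. None of these 3 coding regions passed in either direction (limma adjusted p = 0.11, 0.088 and 0.16), though CTF4 was lower without the filter on dim probes (-0.24). There the array median used for centring moved and no CTF4 coding probe was added. The means hide a shape within the frames. Cut into 3 equal parts, the first part exceeded the middle one by 1.62 in RAD27, 0.64 in CDC9 and 1.14 in CTF4. Among all genes 60.3% passed in that direction. The promoters of CTF4, at 1.86 and 1.47, and of CDC9, at 1.43 and 1.71, were higher.

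The frames of both genes of nucleotide supply were lower, as were 42.9% of all coding regions. CDC21, thymidylate synthase, measured -1.09 and -1.12 over its frame (mean -1.11 ± 0.02, limma adjusted p = 1.68e-05). It was the lowest of the 7 genes under 1000 bp. Its promoter was also lower, at -0.54 on both arrays (limma adjusted p = 0.0017), though the promoter still exceeded the frame by 0.57 ± 0.02. RNR1, the large subunit of ribonucleotide reductase, measured -0.61 and -0.83 over its frame, and its promoter, at 0.18 ± 0.07, did not pass (limma adjusted p = 0.31). That promoter was higher without the filter on dim probes (0.77) and with normexp (0.34). RNR1 rose from -1.81 at 1569 bp to 1.16 at 2451 bp.

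The segments of the frame were compared next. The first segment, when frames were cut into 3 equal parts, exceeded the middle one in 22 of 35 genes and fell below it in PRI2 and POL30, neither of which passed with loess or normexp, where 60.3% of all 4176 genes passed upward and 9.29% downward. The last segment exceeded the middle one in 20 of 32 genes and fell below it in RFC1 (by 0.71 on the log2 scale), where 49.3% of 4134 genes passed upward and 13.4% downward. Median differences were 0.67 and 0.66 for the replication genes, and 0.57 and 0.39 for all genes. Values were then averaged by gene for frames of at least 1000 bp, each window holding the genes with a used probe there. In the window 500 to 250 bp before the start codon, 14 replication genes had a mean of 1.37 ± 0.02. At 500 to 750 bp inside the frame, 20 had a mean of -0.74 ± 0.09. Means of all genes in these windows were 1.27 and -0.38. At 750 to 1000 bp the replication genes were at -0.60 and all genes at -0.44. In the window just before the start codon the replication genes stood at 0.62 and all genes at 0.95. The rise at the ends of frames is given by the arrangement of the next gene, without a test between arrangements. Where the next gene lay in tandem, the last segment was higher than the middle one in 14 of 18 replication genes (median 1.04), where 59.5% of all 1973 such genes were (median 0.58). Where the next gene converged on the same end, it was higher in 6 of 14 (median 0.33), where 40.0% of all 2161 were (median 0.23).

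**Figure D4:**
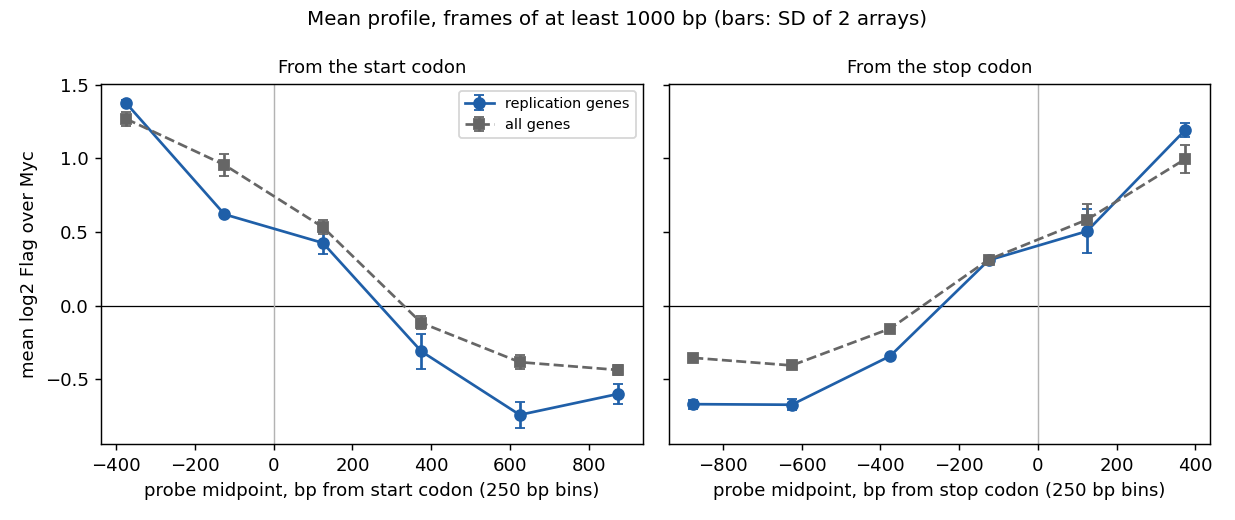
Mean log2 Flag over Myc in 250 bp bins by distance from the start codon (left) and stop codon (right), for replication genes and for all genes with frames of at least 1000 bp (error bars, SD of the 2 arrays). Both lines fall into the frame and rise at its end. The replication genes are lowest at 500 to 750 bp inside the frame, at -0.74, where all genes are at -0.38. All genes are lowest at 750 to 1000 bp, at -0.44, where the replication genes are at -0.60.

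Divergent arrangement of genes bears on the promoter values, since 19 of the 32 measured promoters share at least 1 used probe with a neighbour transcribed away from it. The shared probe gives no sign of which gene it belongs to. The frames on the 2 sides could still differ. RFA1 was at -1.04 and its partner SEN34, a subunit of the tRNA splicing endonuclease, at 0.46 ± 0.07. MCM5 was at -1.09 and its partner PIG1 at 0.30 ± 0.02. RFC5 was at 1.31 and its partner IST2 at -0.43 ± 0.08. These differences between partners were not tested. The 21 promoters with a divergent neighbour had a median of 0.35, with 11 higher, where 74.6% of all 2394 divergent promoters were higher (median 0.97). The 11 promoters behind a tandem neighbour had a median of 1.03, with 10 higher, where 77.3% of 2152 tandem promoters were (median 1.01).

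A second list of 30 further replication genes was read in the same way. Over coding regions 12 (40%) were higher, 15 (50%) lower and 3 neither, with a median of -0.21, where 39.1% of all coding regions were higher and 42.9% lower. The highest were DUT1, which removes dUTP, at 2.60 ± 0.08, SML1, an inhibitor of ribonucleotide reductase, at 1.93 ± 0.07, and CLB5, an S phase cyclin, at 1.83 ± 0.15. The lowest were POL3, the catalytic subunit of polymerase delta, at -1.48 ± 0.23, DNA2, a nuclease and helicase, at -1.04 ± 0.12, and DCC1, of the Ctf18 loader, at -0.97 ± 0.03. Of 25 measured promoters 19 (76.0%) were higher and 1 lower, close to the 75.9% and 6.97% of all promoters. The highest were RNR4, a small subunit of ribonucleotide reductase, at 3.57 ± 0.12, TOP1, topoisomerase I, at 2.35 ± 0.10, and SLD2, an initiation factor, at 2.12 ± 0.09. The lowest was RNR3, a damage-induced large subunit of ribonucleotide reductase, at -0.48 ± 0.26. DCC1 at -0.28 ± 0.05 and TAH11, which loads the helicase with Cdc6, at 0.01 ± 0.25 followed and did not pass.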

How the data were processed

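The arrays are Agilent 44K 2-colour tiling arrays with probes of 60 bases. The deposited intensity values were made by Agilent Feature Extraction 8.5.1.1 with linear dye normalization, per the file headers. Red is Myc and green is Flag, and the log10 ratios in the deposited files are of red to green, per the file headers. The deposited table of log2 values holds the same ratios, uncentred, to within 4.9e-08, and was reversed to Flag over Myc. The coordinates are those of the files, whose build the labels and headers do not name.

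The log2 of green over red processed signals was centred on each array's median, which was -0.46 on both. Of 41282 nuclear probes, 3964 were left out because a channel was dim against background on at least 1 array and 2419 because of an outlier flag, so 34899 were used; none was saturated. Frame positions come from the probe distances in the files and frame lengths from the RefSeq table of assembly R64. Of 6593 listed frames 5927 had a length, and 12 of those were dropped because a probe called inside the frame lay at least 30 bp past its end. That check was made only for frames on the Watson strand, so frames on the Crick strand were kept without it. A promoter is the 500 bp before the start codon outside any frame. Region means were tested with limma 3.58.1 (intercept only, R 4.3.3), adjusted by Benjamini-Hochberg over all regions at 0.05, and the fit was tested on simulated data. For promoters limma took a single spread for all regions, so promoter p-values are small even where the arrays differ. Alternatives were the dim-probe filter, outlier flags, normexp, loess, arrays scaled to one median absolute value, the value table, medians of probes, probe minimum, promoter window, shared promoter probes and leaving out an array. All 41 members were named, by role. The members, the second list and the timing classes were chosen with earlier results of these arrays known. No probe or promoter sequence was used here.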

Additional observations from a re-analysis of the deposited data

How the results depend on the processing

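No paired analysis was possible because the samples form 1 group. With 1 array left out there is no test, and the promoter median ranged from 0.89 to 0.94, the coding median from -0.61 to -0.53. The promoter median was 0.72 with loess, 0.75 without the filter on dim probes, 0.85 with normexp, 0.84 with a 300 bp window, 0.68 with at least 2 probes per region and 1.03 with shared probes left out. The number of higher promoters was 8 of 12 with at least 2 probes per region, 25 of 32 with normexp and 14 of 15 with shared probes left out. Lower promoters numbered 1 with at least 2 probes per region, 1 with normexp, 1 with the 300 bp window, 0 with loess and 0 with shared probes left out. In that last setting neither CDC21 nor POL2 had a promoter value. The coding median was -0.43 with loess, -0.66 without the filter and -0.49 with normexp. For all genes it was -0.05 with loess, -0.14 without the filter and -0.10 with normexp. Without the filter the arrays were centred on a median that included the dim probes, so coding regions with unchanged probes all moved by the same amount. The promoter step had a median of 1.06 with at least 2 probes, 1.33 with the median of the probes, 1.11 without the filter, 1.05 with normexp and 1.88 with shared probes left out. Its count was 10 higher and 1 lower with at least 2 probes, and 14 higher and 1 lower with shared probes left out, where fewer genes had both regions. With loess the count was 24 higher and 3 lower. For the first segment of the frame minus the middle one the median was 0.76 with loess and 0.80 with outlier-flagged spots kept, and the lower count 1 with scaled arrays, 1 without the filter, 0 with loess and 0 with normexp. For the last segment the lower count was 3 with loess and 3 with normexp. The median probe was -0.33 with normexp. Of single genes, the sign turned for the POL12 promoter (-0.018, loess), the POL32 step (-0.25, no filter), the CDC9 last segment (-0.87, loess) and the PRI1 last segment (0.48, normexp). The cause was not tested. The median of all promoters moved from 0.99 to 0.85 both without the filter and with normexp. It was 0.94 with loess and 0.93 with the 300 bp window. With at least 2 probes per region it was 1.09, and with shared probes left out 1.08. Of 172 single-gene results, 15 lost their call with loess, 7 with normexp, 5 without the filter and 0 with the deposited value table. Signal near background limits the promoters, 9 of which gave no value.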

Other observations

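The 9 promoters without a used probe have values if the filter on dim probes is dropped, though these rest on signal near background. They ranged from -0.57 for DPB2 to 1.21 for RFC4, with MCM2 at 0.73 and 1.06 on the 2 arrays and MCM3 at -0.06 and 0.25. ORC4, at -0.62 and 0.999, and RFA2, at -0.59 and 1.31, were on opposite sides of 0 on the 2 arrays. Of the 23 dim promoter probes, 18 were dim in the Myc channel and 16 in the Flag channel on at least 1 array.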
